A study of Homo sapiens with 4 samples.

Results

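Among 27678 listed m6A-seq peaks, 545 had immunoprecipitate (IP) reads and 0 input reads, and these zero-input peaks are described here. They were chosen on measured values, the deposited input read count of each peak, in a table whose lowest IP count is 5. The 545 peaks made up 1.97% of the table and lay in 504 of the 7267 genes with any listed peak (6.94%). The remaining 27133 peaks had at least 1 input read, and 4216 of them had at least 4 IP reads per input read. That IP-rich set and the 434 peaks with exactly 1 input read served for comparison. The libraries were 2 of m6A IP and 2 of input, all from a human breast cancer line with no treatment named, and the labels do not say whether the 2 of a kind came from separate cultures. It is named MDA-MB-231Br, a brain-seeking derivative, in the design and growth notes, while its cell line label reads MDA-MB-231 and the extraction protocol mentions embryos. VIM, CD44 and EGFR, mesenchymal and basal-like genes known in this line, had input counts of up to 13580, 2561 and 999 in a listed peak, and no peak was listed for ESR1, PGR, NANOG or POU5F1. The table held 1 IP count and 1 input count per peak with no replicate number, so they were read as the authors' pooled counts. With no column per library in the table used here, no test between libraries was made, and the 95% intervals given throughout are exact and cover counting error alone.

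N6-methyladenosine (m6A) is the most common internal mark of messenger RNA. The METTL3-METTL14 complex writes it at adenosines in the DRACH consensus (D stands for any base but C, R for a purine and H for any base but G), of which GGAC is the most frequent core, and YTH domain proteins read it. In m6A-seq, RNA is fragmented and an antibody pulls down the fragments that carry the mark. Peaks are meant to be regions enriched in the IP over unselected input RNA. Many peaks listed here nevertheless held fewer IP than input reads. Median IP reads were 28 in the 9315 peaks with 30 to 99 input reads and 57 in the 10722 with 100 or more. The peaks with input reads are thus not a set of IP-rich peaks. Antibodies against m6A also bind m6Am, the related mark on the nucleotide next to the cap, and 5' UTRs of human genes are often rich in G and C. A peak without input reads has no measured background, so its enrichment has a lower limit and no estimate.

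The sequences below are shown because most of them carry the pattern described in the following paragraphs, GC-rich RNA near the 5' end. Each is a stretch of at most 30 bases around a GGAC in a peak with many IP reads, on the transcribed strand, 5' to 3', with GGAC in capitals, from GENCODE 29 transcripts on GRCh38. They come from peaks that the authors' region column puts in the 5' UTR, of the receptor tyrosine kinase ROR1 (chr1:63774158-63774187, plus strand), the Hippo regulator WWC2 (chr4:183099538-183099567, plus), the Golgi secretory kinase FAM20C (chr7:193052-193081, plus), the Notch ligand DLL4 (chr15:40929581-40929610, plus), the growth factor BMP2 (chr20:6768189-6768218, plus) and the potassium channel KCNQ5 (chr6:72621962-72621991, plus). MRPS26 (chr20:3046087-3046116, plus), a mitochondrial ribosomal protein gene, is another. On the transcripts used, the middle of the WWC2 and MRPS26 stretches is coding sequence. The WWC2 stretch also lies inside the next listed WWC2 peak, which overlaps the zero-input peak and held 26 IP and 141 input reads. The KCNQ5 stretch has 56.7% GC, as has that of HES2, against 70% to 86.7% in the others from 5' UTR peaks. The last 2, for contrast, are 3' UTR peaks by the authors' region column, of the bHLH repressor HES2 (chr1:6418619-6418648, minus) and of the zinc finger gene ZNF615 (chr19:51993475-51993504, minus).
ROR1: cccGGACagcctgGGACtgacccgccggcc
WWC2: gggaggaggccagGGACtacgacggcaagg
FAM20C: ggcccgggcccggGGACagccccggagctg
MRPS26: cgcctgggcgcggGGACcccgtgcaggccc
DLL4: cccgccggctggcGGACgcgcgggaaagcg
BMP2: agaatgcgcccgaGGACgacggggcgccag
KCNQ5: ggctgttagaaattgGGACtcctcggcctc
HES2: gctggagaagaaaGGACaagaggcagcagg
ZNF615: gatccggctaatgGGACatcaacgaactca

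The next set shows coding peaks, whole, on the same terms. SP5, a Wnt-responsive transcription factor of the Sp family, had the most IP reads of any zero-input peak outside TRIM10 and TRIM15 (chr2:170717096-170717215, plus strand), and its peak holds no GGAC. RABEP2, an effector of Rab GTPases on endosomes (chr16:28906030-28906129, minus), has none either. PCDHGA6, a clustered protocadherin (chr5:141375903-141376002, plus), has 2. PCDHB12, another protocadherin, had 2 zero-input peaks, of which the upstream is shown (chr5:141210569-141210668, plus), again without GGAC. PLXNC1, the semaphorin receptor plexin C1, is shown by the middle of its 3 zero-input peaks (chr12:94149763-94150032, plus).
SP5: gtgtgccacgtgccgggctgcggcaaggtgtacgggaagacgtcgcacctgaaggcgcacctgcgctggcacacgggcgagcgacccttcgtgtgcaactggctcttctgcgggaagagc
RABEP2: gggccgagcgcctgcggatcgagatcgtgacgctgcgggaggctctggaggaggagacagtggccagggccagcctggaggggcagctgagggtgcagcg
PCDHGA6: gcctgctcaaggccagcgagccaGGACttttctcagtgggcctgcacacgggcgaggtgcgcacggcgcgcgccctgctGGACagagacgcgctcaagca
PCDHB12: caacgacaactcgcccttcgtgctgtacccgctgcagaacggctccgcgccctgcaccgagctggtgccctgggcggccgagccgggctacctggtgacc
PLXNC1: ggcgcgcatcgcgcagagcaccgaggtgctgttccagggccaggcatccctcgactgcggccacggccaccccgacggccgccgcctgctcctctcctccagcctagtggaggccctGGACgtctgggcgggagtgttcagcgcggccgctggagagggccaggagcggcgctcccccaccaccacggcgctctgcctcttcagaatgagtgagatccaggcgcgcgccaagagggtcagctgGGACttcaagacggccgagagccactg

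Most zero-input peaks rested on few IP reads. Their median was 11 (interval of the median 10 to 12), with quartiles of 7 and 19, against a median of 33 in peaks with input reads (32 to 34). Of the 545, 242 had under 10 IP reads (44.4%, 40.2% to 48.7%), 71 had exactly 5, and 44 had at least 50. IP reads per 100 nt of spliced RNA had a median of 4.71 in zero-input peaks and 16.7 in peaks with input reads. Peaks that join exons made up 11.0% of the former and 64.5% of the latter. Whether their counts include reads from introns was not tested. Just outside the rule, the 434 peaks with 1 input read had a median of 13 IP reads, with quartiles of 8 and 24.

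The lower limit on IP over input reads followed from the IP reads alone. With 5 IP reads and 0 input reads, the exact lower bound of the ratio was 0.916, with 6 it was 1.18, and with 11, the median, 2.51. It passed 1 in 474 zero-input peaks, where over all listed peaks 31.1% had such a bound, and the rule used these same reads. At least 17 IP reads were needed for a bound above 4, which 164 zero-input peaks had. Library totals were not used, so a ratio of 1 does not mark absence of enrichment. In the authors' deposited table, the score was infinite in 379 zero-input peaks (69.5%), against 3.26% of all listed peaks, and the FDR lay above 0.05 in 58 of the 545, where over all listed peaks it did in 7.06%.

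**Figure D1:**
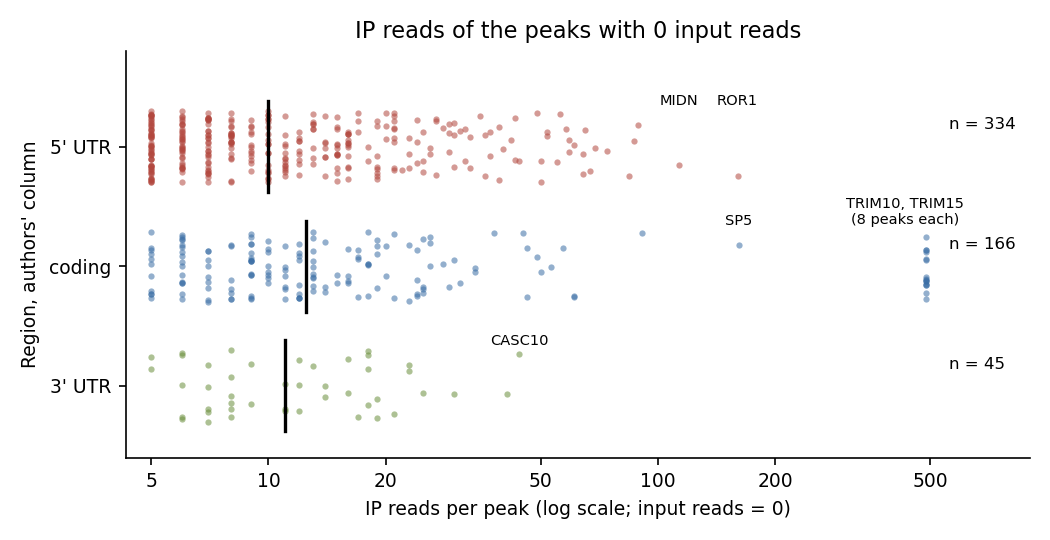
Each point is a zero-input peak, placed by its IP reads (log axis) and by the authors' region column, with random vertical spread. Black lines mark medians of 10 for 5' UTR, 12.5 for coding and 11 for 3' UTR peaks. The points at the far right are the 16 peaks of TRIM10 and TRIM15, which share their reads.

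The 16 zero-input peaks with most IP reads lay in 2 neighbouring genes and repeated the same reads. TRIM10 and TRIM15 are tripartite-motif genes on chromosome 6. TRIM10, on the minus strand, had 8 zero-input peaks between 30151947 and 30160925, each with 487 IP reads, and TRIM15, on the plus strand, had 8 between 30163212 and 30172687, each with 488. Within each gene the authors' deposited table also gave the 8 peaks the same p-value, 9.89e-08 in TRIM10 and 1.28e-12 in TRIM15. These 16 held 7800 of the 16295 IP reads summed over zero-input peaks (47.9%). Each gene also had a long listed peak that reached beyond it. That of TRIM10 (30160836 to 30197164) held 3045 IP and 608 input reads, and that of TRIM15 (30172598 to 30208412) held 3522 and 808. Listed peaks of TRIM26, further along the chromosome, held 489 to 1306 IP and 8 to 94 input reads. Within each gene the same number was thus listed for every zero-input peak, and the cause was not tested.

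Identical IP reads, input reads and p-value within a gene occurred in 31 zero-input peaks of 8 genes (5.69%), against 0.618% of all listed peaks. Zero-input peaks have the same input count by the rule, so these shares are not on equal terms. The 31 include the 16 peaks of TRIM10 and TRIM15. S1PR3, a receptor for the lipid sphingosine 1-phosphate, had 5 such peaks of 21 IP reads each on chromosome 9 between 88996626 and 89001135, and 4 of them lay within an intron of another S1PR3 transcript. The other genes were COLQ, ARID1B, AKR1E2, RMI2 and STRADB, with 2 peaks each. Counted once per set of shared reads within a gene, 522 zero-input peaks remained, with 9333 IP reads in all and a median of 10. That count was chosen after the data were seen, and the peaks with most reads named below were ranked on it. It still holds nearly the same stretch under 2 gene symbols, as for ANKRD23 and ANKRD39 with 18 IP reads each.

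Zero-input peaks lay mostly in 5' UTRs. By the authors' region column, 334 were 5' UTR peaks (61.3%, 57.1% to 65.4%), 166 were coding (30.5%, 26.6% to 34.5%) and 45 were 3' UTR peaks (8.26%, 6.09% to 10.9%). The 5' UTR share was 17.0% in peaks with input reads (16.6% to 17.5%) and 39.6% in IP-rich peaks (38.1% to 41.1%). None of these intervals overlap, but peaks of a gene overlap each other and are not independent. Among peaks with 5 to 20 IP reads, a similar IP level, the share was 63.0% in zero-input peaks and 13.6% in peaks with input reads. Peaks with exactly 1 input read stood at 65.8% in that class. The high share at this IP level was thus not particular to zero-input peaks.

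The region column mostly gave the region of the left end of a peak on the genome, so strand bears on it. It equalled the left-end region on the transcript used in 99.5% of the placed plus-strand zero-input peaks and 98.2% of the minus-strand ones. On the plus strand it gave 75.5% of zero-input peaks in the 5' UTR, and on the minus strand 30%. Read at the midpoint of the peak on the transcript, the share was 56.4% over both strands (52.0% to 60.6%), 62.3% for plus-strand and 43.0% for minus-strand genes. In peaks with input reads, midpoints gave 13.7% for plus-strand and 11.4% for minus-strand genes. The higher 5' UTR share of zero-input peaks thus stood on both strands, and it was larger on the plus strand. Genes on the plus strand held 375 zero-input peaks (68.8%, 64.7% to 72.7%), against 65.2% of the peaks with input reads.

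**Figure D2:**
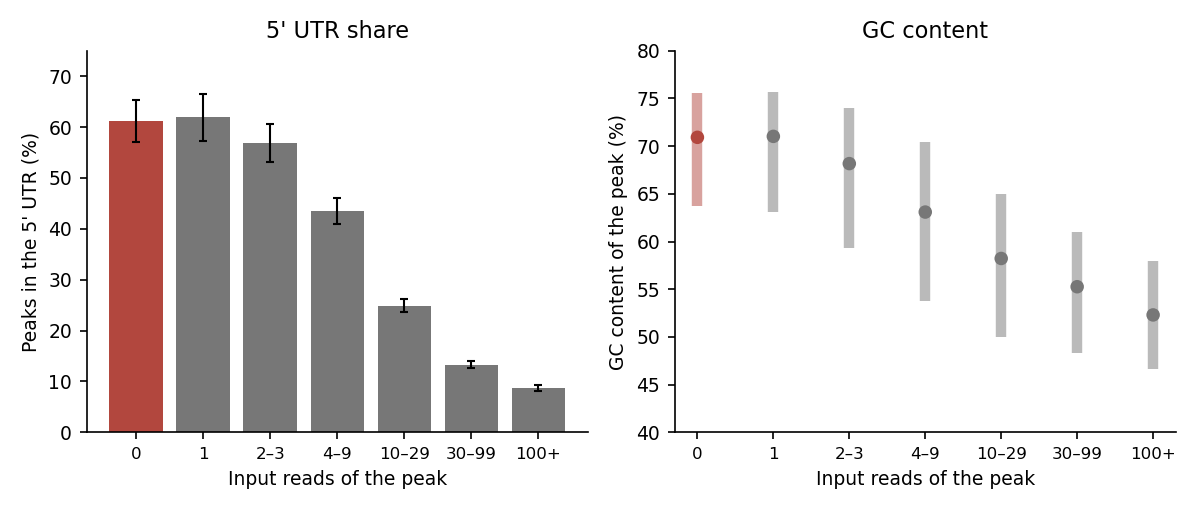
All listed peaks grouped by their input reads, with zero-input peaks in red. Left, percent of peaks in the 5' UTR by the authors' column with exact 95% intervals, 61.3% at 0 input reads and 8.67% at 100 or more. Right, median GC content (points) and quartiles (bars) of the peak's RNA.

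Peaks just outside the rule looked like those inside it. The 5' UTR share was 61.3% at 0 input reads, 62.0% at 1, 56.8% at 2 to 3, 43.5% at 4 to 9, 24.9% at 10 to 29, 13.3% at 30 to 99 and 8.67% at 100 or more. Median GC content along the same classes was 70.9%, 71.0%, 68.2%, 63.1%, 58.2%, 55.3% and 52.3%. The interval of the 5' UTR share at 1 input read (57.2% to 66.6%) covered the share at 0, so the rule took the low end of a graded series. The median of IP reads was lowest at 0 input reads, at 11, and was 57 at 100 or more.

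Zero-input peaks were rich in G and C. Of the 534 that could be placed on a GENCODE 29 transcript, the median GC content was 70.9% (69.6% to 72.0%), against 55% in peaks with input reads (upper bound 55.2%) and 64.7% in IP-rich peaks (64.4% to 65.0%). CpG dinucleotides had a median of 10.7 per 100 nt in zero-input peaks, 3.13 in peaks with input reads and 6.50 in IP-rich peaks. Within zero-input peaks, GC content was 72.7% in 5' UTR, 67.8% in coding and 58.2% in 3' UTR peaks. In IP-rich peaks it was 70% in the 5' UTR, 62.2% in coding and 59% in the 3' UTR, so the 3' UTR zero-input peaks were not the richer ones. Runs of G that could form a G-quadruplex, searched as 4 runs of at least 3 G on the transcribed strand with 1 to 7 bases between them, were in 13.5% of zero-input peaks (10.7% to 16.7%), 2.78% of peaks with input reads and 7.64% of IP-rich peaks.

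Seen from the whole table, the share of peaks with 0 input reads was higher at higher GC content. It was 13.3% at GC of 70% or more (288 of 2166 peaks, 11.9% to 14.8%), 2.16% at 60% to 70%, 0.656% at 50% to 60% and 0.442% below 50%. The other peaks of these classes had a median of 9 input reads at 70% or more, 48 at 60% to 70%, 86 at 50% to 60% and 98 below 50%. Input reads were thus fewer at high GC content also where they were not 0. Whether this reflects the libraries or the RNA was not tested. At GC of 70% or more, 76.0% of zero-input peaks and 66.4% of the other peaks lay in the 5' UTR, a smaller gap than over all GC levels.

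**Figure D3:**
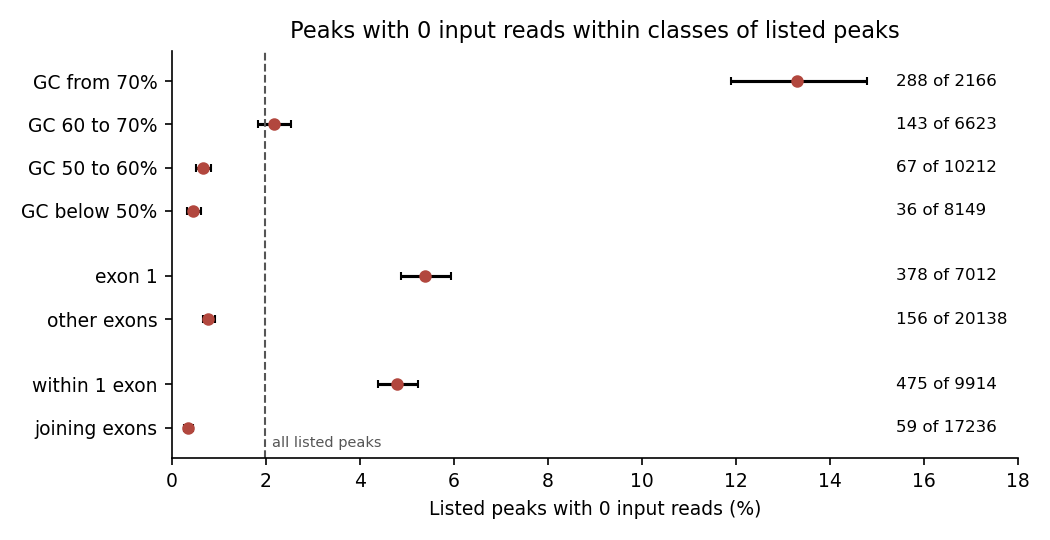
Percent of listed peaks that had 0 input reads, with exact 95% intervals, in classes of GC content, exon and exon structure. The dashed line is the 1.97% of all listed peaks. The class with GC from 70% stands at 13.3%, and peaks joining exons at 0.342%.

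Zero-input peaks sat at the 5' end of the transcript and within a single exon. They began in exon 1 in 378 of 534 cases (70.8%, 66.7% to 74.6%), against 24.9% of peaks with input reads (24.4% to 25.4%) and 50.3% of IP-rich peaks. Peaks that joined exons made up 11.0% of zero-input peaks (59 of 534, 8.52% to 14.0%), 64.5% of peaks with input reads and 37.6% of IP-rich peaks. The annotated transcript start was the first base of 121 zero-input peaks (22.7%, 19.2% to 26.4%), against 5.82% of peaks with input reads, 20.2% of IP-rich peaks (upper bound 21.4%) and 28% of peaks with 1 input read (23.8% to 32.5%). Another 94 began within the first 50 nt, which makes 215 in all (40.3%). The start codon lay within 183 zero-input peaks (34.3%) and the stop codon within 22 (4.12%), against 14.9% and 6.93% of peaks with input reads. Their median length was 240 nt, against 190 nt, and the midpoint lay a median of 275 nt from the transcript start, against 1040 nt.

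Position and GC content moved together. Among peaks within a single exon, 16.4% of those in exon 1 with GC of 70% or more had 0 input reads (14.6% to 18.4%), and 14.2% of those in other exons at that GC (31 of 219, 9.82% to 19.5%). Below 70% GC, the shares were 6.04% in exon 1 (4.98% to 7.24%) and 1.35% in other exons (1.08% to 1.66%). At high GC the exon 1 and other-exon intervals overlap, and at lower GC they do not. Peaks that joined exon 1 to later exons had 0 input reads in 0.542% of cases (20 of 3688).

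The share of zero-input peaks with a GGAC core lay between those of peaks with input reads and of IP-rich peaks. It stood on the transcribed strand of 382 of 534 zero-input peaks (71.5%, 67.5% to 75.3%), 63.3% of peaks with input reads (62.7% to 63.9%) and 75.8% of IP-rich peaks (74.4% to 77.1%). Per 100 nt there were 0.628 GGAC in zero-input peaks, 0.543 in peaks with input reads and 0.695 in IP-rich peaks. The wider DRACH consensus, which contains some but not all GGAC, was rarer per length, at 1.21, 1.86 and 1.54 per 100 nt. Within zero-input peaks DRACH stood at 0.839 per 100 nt where GC content was 70% or more and at 2.06 where it was below 50%, so base composition moves with this count. A GGAC was in 66.0% of zero-input peaks with 5 to 9 IP reads, 78.1% of those with 10 to 19, 78.8% of those with 20 to 49 and 61.5% of those with 50 or more. A match shows that these letters are present and is no evidence of methylation.

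Among 5' UTR peaks, ROR1 had the most reads. ROR1 encodes a receptor tyrosine kinase-like protein that binds Wnt ligands. Its zero-input peak in exon 1 on chromosome 1 (63774043 to 63774382, 340 nt, 74.7% GC, 5 GGAC) held 160 IP reads (Poisson interval 136 to 187) and 0 input reads. The 160 reads are 53.3-fold the floor of 3 input counts, a ratio that leaves out the counting error of the IP reads. The next listed peaks of ROR1, which joined exon 1 to exons 2 and 3, held 13 and 6 IP reads and 46 and 47 input reads. Both later ROR1 peaks thus held more input than IP reads. In WWC2, a scaffold of the KIBRA family that acts in the Hippo pathway, the zero-input peak (chromosome 4, 183099293 to 183099602) held 87 IP reads, and the 5 other peaks held 5 to 26 IP and 37 to 141 input reads. The second WWC2 peak, which overlaps the first, had the most of both, 26 IP and 141 input reads.

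In other genes the later peaks held many IP reads as well. MIDN, which encodes midnolin, a protein that carries substrates to the proteasome, had 113 IP reads (93.1 to 136) in a peak of 730 nt joining exons 1 and 2 (chromosome 19, 1248563 to 1250521). The 2 peaks after it held 217 and 237 IP and 29 and 45 input reads. MRPS26, a gene of the small mitochondrial ribosomal subunit, had 84 IP reads in exon 1 (chromosome 20, 3045945 to 3046274), followed by peaks of 1074, 2741 and 3508 IP reads with 89, 131 and 125 input reads. FAM20C, a Golgi kinase that phosphorylates secreted proteins, had 74 IP reads in a peak of 130 nt at 80% GC (chromosome 7, 193019 to 193148), and its 6 other peaks held 92 to 344 IP and 80 to 168 input reads. HOOK3, which links cargo to dynein, had 89 IP reads in exon 1 on chromosome 8 (42896932 to 42897181). Its other listed peak, which overlaps that one, held 71 IP and 18 input reads.

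The authors' p-values did not follow the reads. In the authors' deposited table the p-value was 5.84e-63 for HOOK3, 1.4e-37 for ROR1, 1.24e-35 for WWC2 and 1.32e-24 for MIDN, but 0.000259 for SP5 with 161 IP reads and 0.000201 for MRPS26 with 84. For MIDN the deposited FDR of 2.82e-28 was below the p-value. These values are the authors' own and were used here as description alone.

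**Figure D4:**
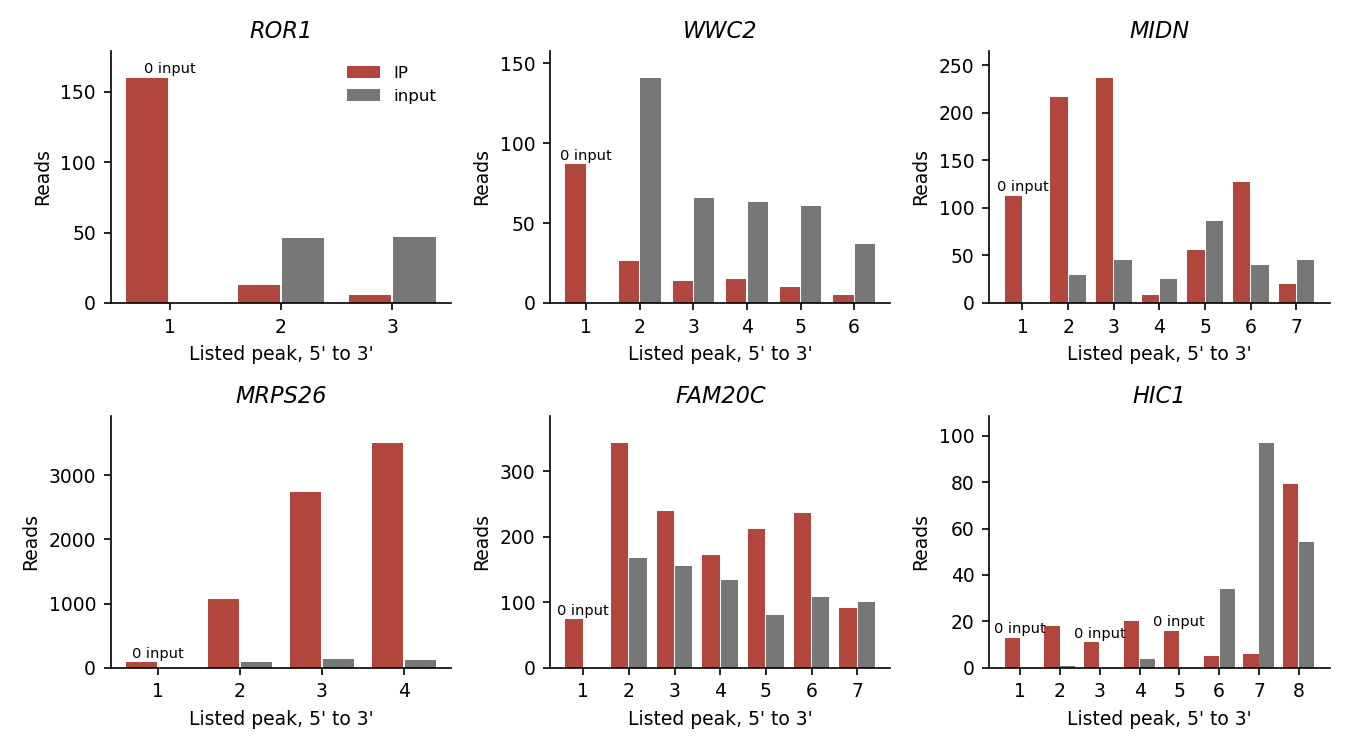
IP reads (red) and input reads (grey) of every listed peak of 6 genes, in order from 5' to 3', with bars from 0 and a separate scale per gene. The zero-input peak is the first of each gene, and HIC1 has 2 more. In ROR1 and WWC2 the later peaks have more input than IP reads, while in MRPS26 they reach 3508 IP reads.

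Coding zero-input peaks had a median of 12.5 IP reads. Of the 159 placed on a transcript, 64 began in exon 1 (40.3%, 32.6% to 48.3%) and 37 ended in the last exon. A peak on a single-exon transcript counts in both. The SP5 peak, 120 nt of exon 2 in the sequence printed above, held 161 IP reads (137 to 188), which is 134 per 100 nt, and the only other listed SP5 peak, in the 3' UTR, held 44 IP and 11 input reads. RABEP2 held 91 IP reads (73.3 to 112) in 100 nt of exon 9, and its other peak, in exon 8, held 17 IP and 12 input reads. KIFC2, a kinesin motor gene on chromosome 8, held 61 in a peak joining exons 2 and 3, with 6 later peaks of 72 to 681 IP and 33 to 56 input reads. TMCC3, an endoplasmic reticulum membrane protein gene, had as many (61) at 74.5% GC in exon 1.

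The 3' UTR peaks were the smallest group and differed in composition. All 45 were placed, 44 ended in the last exon, and 31 were on the minus strand, where the left end is the downstream end. By midpoint 10 of the 45 (22.2%) were coding. Their highest read count was 44, in CASC10 (chromosome 10, 21494838 to 21495057), and next came HES2 with 41 (chromosome 1, 6418552 to 6418651), PITPNM3 with 30, ZNF615 with 25 and AHRR with 23, a number that WDR33 shared. CASC10, HES2, PITPNM3 and ZNF615 had no other listed peak. AHRR, the repressor of the aryl hydrocarbon receptor, had 2 coding peaks in the same last exon with 101 and 38 IP reads and 2 input reads each. The ZNF615 peak stood at 43.7% GC and that of CASC10 at 70%. DRACH per 100 nt was 2.03 in 3' UTR peaks, 1.40 in coding and 1.05 in 5' UTR peaks.

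Most genes had a single zero-input peak. Exactly 1 was found in 482 genes, 2 in 16 and 3 or more in 6, namely TRIM10, TRIM15, S1PR3, COLQ, HIC1 and PLXNC1. COLQ encodes the collagen tail that anchors acetylcholinesterase, and its 4 overlapping peaks across exons 3 to 7 held 9, 9, 10 and 11 IP reads and were its only listed peaks. HIC1 is a zinc finger repressor whose promoter is often methylated in tumours. Its zero-input peaks held 13, 11 and 16 IP reads, with peaks of 18 and 20 IP reads and 1 and 4 input reads between them. Its 3 peaks in the 3' UTR held 5, 6 and 79 IP and 34, 97 and 54 input reads. PLXNC1 had 7, 10 and 18 IP reads in 3 peaks and no listed peak with input reads.

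Many of these genes had input reads in other listed peaks. Another listed peak with input reads existed in 349 of the 504 genes (69.2%, 65.0% to 73.3%), and 147 genes had a zero-input peak as their sole listed peak. In the 349, the highest input count had a median of 52 (43 to 68), with quartiles of 16 and 143. In the 6763 genes without a zero-input peak the median was 74, with quartiles of 27 and 185. The input count reached 100 in 123 of the 349 and stayed under 10 in 60. TNKS2, a poly(ADP-ribose) polymerase of the Wnt pathway, had 9 IP and 0 input reads in exon 1, with 19 IP and 1190 input reads in the overlapping peak that joined exons 1 and 2. KCNQ5 had 27 and 0 in exon 1, with 19 IP reads and 389 and 419 input reads in the 2 peaks after it. Those 2 peaks join exons across long introns, the first from 72622492 to 73003991 with a spliced length of 180 nt. The remaining KCNQ5 peaks held 33 to 44 input reads and the remaining TNKS2 peaks 51 to 71. Whether counts of peaks that join exons include reads from introns was not tested. YY1, a transcription factor named here after its values were seen, had 42 and 0 in exon 1 and 65 to 783 input reads in its other peaks.

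Within a gene, the zero-input peak was usually the first. Of 398 zero-input peaks in genes with at least 2 listed peaks, 295 were the most upstream (74.1%, 69.5% to 78.4%) and 46 the most downstream. Of all 25788 peaks in such genes 20.9% were the most upstream. A peak with input reads of the same gene overlapped 173 zero-input peaks (31.7%, 27.9% to 35.8%), and none lay wholly inside such a peak. The overlapping peak had a median of 40 IP and 29 input reads, joined exons in 166 of the 173 cases and reached further downstream in 157. Where in the overlapping peak its input reads lay cannot be seen from counts.

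The share of genes with a zero-input peak was highest in the lists of cadherins and protocadherins, ion channels and G protein-coupled receptors. The 24 gene lists were drawn up with earlier results of these data known, and 135 of the 504 genes were in a list. The lists do not hold whole families. Among genes with a zero-input peak, CHRM3, CMKLR1, NPY1R and FZD1 are not in the list of G protein-coupled receptors. RYR2, MCOLN3 and PKD2 are not in that of ion channels. Genes without a zero-input peak that the lists leave out were not counted, so shares hold for the listed genes alone. In the figure of gene lists, shares are read against the 6.94% of all genes with a listed peak. Of cadherins and protocadherins, 6 of 22 had a zero-input peak (27.3%, 10.7% to 50.2%), and all 7 peaks were coding. All of the 6 but FAT3 are clustered protocadherins on chromosome 5, between 140967895 and 141423234. The interval takes these neighbouring genes as independent. PCDHGA6 held 49 IP reads, PCDHB12 26 and 24, FAT3 16, PCDHGB7 13, PCDHGA11 12 and PCDHAC2 10. Protocadherin genes are close copies of each other, and whether reads were split between them was not tested. Of ion channels 8 of 38 had a zero-input peak (21.1%, 9.55% to 37.3%), with KCNQ5 at 27 IP reads, TRPC1 at 22, KCNC4 at 19 and KCNN2 at 18, and of G protein-coupled receptors 7 of 41 (17.1%, 7.15% to 32.1%), among them the chemokine receptor CCR1 at 19. The intervals of these 3 lists lie above 6.94%, and no test was run on any list. Among genes with a peak of at least 4 IP reads per input read, 15.9% had a zero-input peak. In the 3 lists that share was 35.3% of 17 genes, 30.8% of 26 and 28% of 25. These counts are small and no interval was computed for them, so whether the lists exceed 15.9% is not shown. GPR75 and GPR75-ASB3, a read-through gene of GPR75, both held 11 in almost the same peak. With that pair counted once, a count chosen after the data were seen, 6 of 40 receptor genes had a zero-input peak (15%, 5.71% to 29.8%), and the interval covers 6.94%.

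Developmental signalling genes followed with fewer members. Of receptor tyrosine kinases 3 of 21 had a zero-input peak, ROR1 at 160 IP reads, EPHB1 at 12 and PDGFRA, the platelet-derived growth factor receptor alpha, at 11. Of TGF-beta and BMP genes it was 4 of 31, with BMP2 at 29, SMAD2 at 9, ACVR2B, an activin receptor, at 8 and GREM1, a BMP antagonist, at 7. Of Notch, semaphorin, ephrin and guidance genes it was 5 of 39, led by the Notch ligand DLL4 at 21, and of Wnt genes 3 of 27, led by the receptor FZD1 at 19. Of developmental transcription factors 9 of 71 had one (12.7%, 5.96% to 22.7%), with HES2 at 41, FOXP4 at 39, FOXC1 at 29 and GATA3, the luminal breast factor, at 8. FOXC1, a factor linked to basal-like breast cancer, held 417 IP and 14 input reads in its first listed peak and 29 and 0 in the second. The intervals of these 5 lists all include 6.94%.

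**Figure D5:**
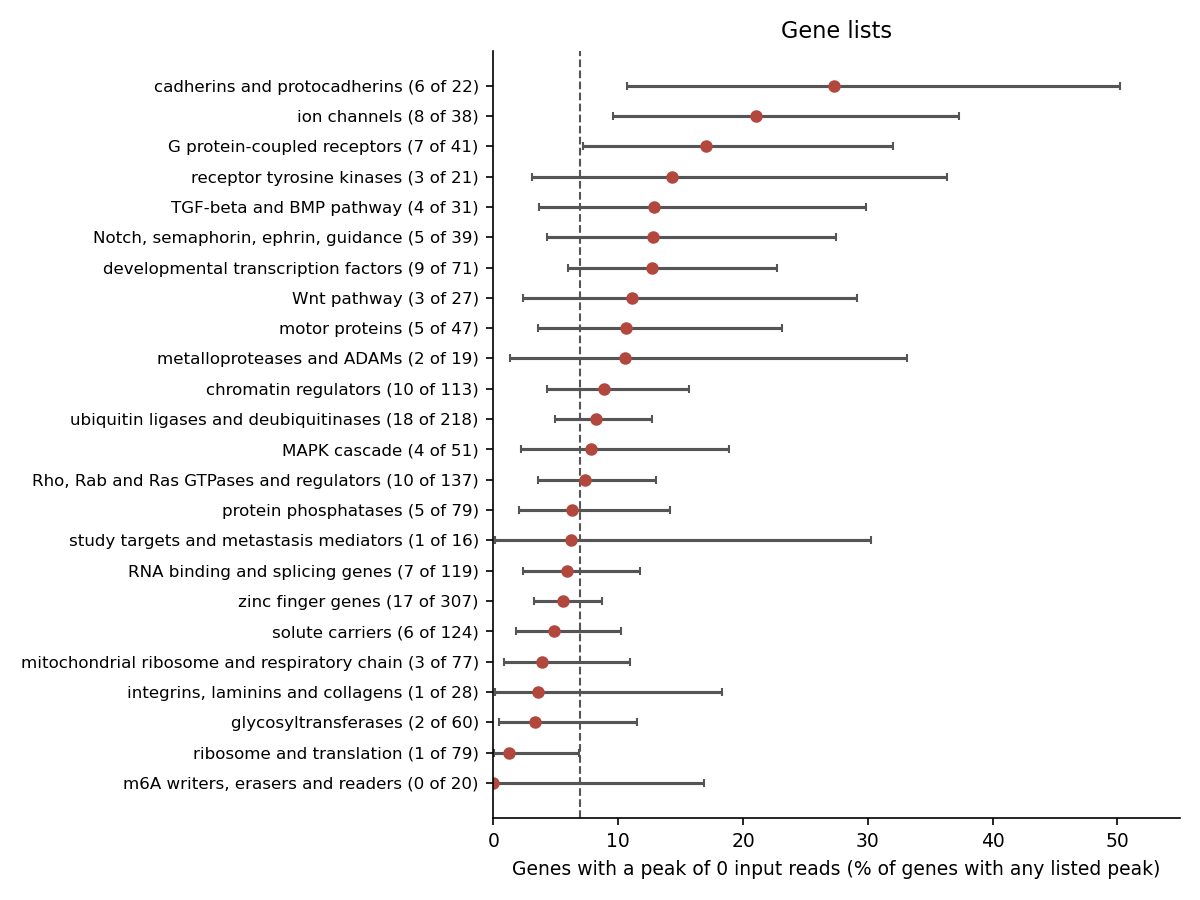
For each gene list, the percent of its genes with a listed peak that had a zero-input peak, with exact 95% intervals and counts in brackets. The dashed line is 6.94%, the share over all genes with a listed peak. Cadherins and protocadherins stand highest at 27.3% and m6A writers, erasers and readers lowest at 0 of 20.

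The intervals of the next lists also include 6.94%. Of ubiquitin ligases and deubiquitinases 18 of 218 had a zero-input peak (8.26%), of chromatin regulators 10 of 113 (8.85%), led by KMT2E at 55 IP reads, and of small GTPases and their regulators 10 of 137 (7.30%), led by CDC42EP5, an effector of CDC42, at 43. Of MAPK cascade genes it was 4 of 51, led by the phosphatase DUSP28 at 36, of motor proteins 5 of 47 (10.6%), of metalloproteases and ADAMs 2 of 19 (10.5%, ADAM22 at 17 and ADAM21 at 10) and of protein phosphatases 5 of 79, led by PPP2R3A at 23. Zinc finger genes had 17 of 307 (5.54%, 3.26% to 8.72%), with 13 of the 17 peaks in the 5' UTR and ZNF354B highest at 30. RNA binding and splicing genes had 7 of 119 (5.88%), all in the 5' UTR and led by CPEB4, which binds cytoplasmic polyadenylation elements, at 16.

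The shares of the remaining lists lay below 6.94%. Ribosomal proteins and translation factors had 1 of 79 (1.27%, 0.0320% to 6.85%), the translation repressor EIF4EBP1 with 16 IP reads, next to a peak of 3171 IP and 273 input reads. The upper bound of that list lies just under 6.94%. Mitochondrial ribosome and respiratory chain genes had 3 of 77 (3.90%), glycosyltransferases 2 of 60, solute carriers 6 of 124 (4.84%), led by SLC25A42 at 17, and integrins, laminins and collagens 1 of 28, COL4A6 at 9. Of m6A writers, erasers and readers 0 of 20 had one (upper bound 16.8%). Of 16 study targets and metastasis mediators, PTGS2, which encodes cyclooxygenase 2, had one with 5 IP reads, the lowest number in the table.

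Assignment to a gene was uncertain for some peaks. An exon of another gene on the same strand overlapped 22 zero-input peaks and one on the opposite strand 46, as KMT2E-AS1 does for KMT2E and FO393414.3 for KCNQ5. The libraries were stranded per the labels, but no source used here gives how strand was counted. A further 109 lay within an intron of another transcript of their own gene and 59 within an intron of another gene. All 545 were assigned to protein-coding genes, 541 by symbol, and 11 could not be placed on a transcript, among them FBXO17 with 58 IP reads and FAT3 with 16.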

How the data were processed

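The m6A-seq libraries, 2 IP and 2 input, came from MDA-MB-231Br cells. The labels' protocols state that poly(A) RNA was fragmented by sonication, immunoprecipitated with an m6A antibody and made into stranded libraries. Per the submitters' processing notes, HISAT2, HOMER and the GRCh38/hg38 build were used, with no role or version, and the peak caller, library totals and any pooling are not given in the sources used here. Per the file headers, the deposited table gives for each peak a whole-number IP and input read count, a p-value, an FDR and a window score. No replicate number is given, and depth is known only as reads summed over peaks, which overlap (4917888 IP and 4790407 input).

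Of 27855 entries, 177 repeats of a gene symbol and coordinates were dropped, and 27678 peaks were kept with no filter on low values. Zero-input peaks are those with an input count of 0. The 545 peaks and the gene lists were chosen with earlier results of these data known, and 2 list patterns that matched unrelated symbols were corrected after the files were seen. Peaks were placed on GENCODE 29 transcripts (both ends in exons, spliced length a multiple of 10 nt, longest coding transcript first), which succeeded for 27150 (98.1%) and supplied the sequences. Shares have Clopper-Pearson and read counts Poisson intervals at the 95% level, and medians intervals from order statistics. The lower bound of IP over input reads comes from the Clopper-Pearson interval of the IP share of a peak's reads. The fold value of ROR1 is against a floor of 3 input counts per peak. The intervals and bounds cover counting error only, and PCR copies are not independent molecules.

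Named are the 10 zero-input peaks with most IP reads, the 5 with most in each region, genes with at least 3, and the 3 highest genes of each list. TMCC3, WDR33, YY1, KISS1, SPEN, MDK, CD82, NAB2, the marker genes of the line and list members beyond these 3 were named after their values were seen. The alternatives were merging, 1 peak per gene, at least 10 IP reads, at most 1 input read, midpoint regions, each strand and the most upstream transcript. Placement and motif counts were tested on simulated data. Python 3.11.15, pandas 2.3.3, scipy 1.17.1 and matplotlib 3.10.9 were used.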

Additional observations from a re-analysis of the deposited data

How the results depend on the processing

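Of 43 alternatives over 10 results, 33 left the value within its interval or, for the number of peaks, at 504 to 547 against 545, and 10 moved it. The 5' UTR share, 61.3%, was 56.4% with at least 10 IP reads and 56.4% by midpoint, 75.5% in plus-strand and 30% in minus-strand genes, where the left end is the downstream end. Requiring at least 10 IP reads kept 303 peaks, with a median of 18 IP reads and a GGAC in 76.1%. Admitting peaks with 1 input read gave 979 peaks. Against the 3160 genes with a peak of at least 4 IP reads per input read (those with 0 input reads included), 15.9% had a zero-input peak, in place of 6.94%. Another peak with input reads in the gene, found for 69.5% of zero-input peaks, overlapped 31.7%. Merging neighbours, 1 peak per gene, and shared reads counted once (chosen after the data were seen) moved none of the 5' UTR share, the medians of IP reads and GC content, the GGAC, strand and exon 1 shares and the number of peaks, and were not run on the gene lists or the other peaks. No replicate could be left out and no DESeq2, edgeR or limma fit was possible, since the table has no column per library. No paired analysis was possible because the columns carry no replicate numbers. Few IP reads limit most statements on single peaks.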

Other observations

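The following genes, some known for a part in tumour growth or spread, had zero-input peaks with many IP reads and were picked after their values were seen. KISS1, the kisspeptin precursor known as a metastasis suppressor, held 46 IP reads (33.7 to 61.4) in exon 3 at 73.1% GC (chromosome 1, 204190541 to 204190670), and its other listed peak held 10 IP and 11 input reads. CD82, a tetraspanin also known as a metastasis suppressor, held 50 IP reads in the first 140 nt of exon 1 (chromosome 11, 44565591 to 44565730), and the next 3 peaks held 323, 329 and 246 IP and 45, 70 and 77 input reads. MDK, the heparin-binding growth factor midkine, held 59 in the first 140 nt of exon 1 (chromosome 11, 46381737 to 46381876), followed by peaks of 242, 313 and 409 IP and 15, 27 and 81 input reads. NAB2, a corepressor of EGR factors, held 67, followed by 483 IP and 13 input reads in the overlapping peak. SPEN, a corepressor that binds Xist RNA, held 59 in exon 1, followed by 125 IP and 38 input reads in the next peak and 5 to 19 IP and 54 to 158 input reads in the later ones.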
